A study of Mus musculus with 18 samples.

Results

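*Foxp3*, *Ctla4*, *Ikzf2*, *Ikzf4*, *Izumo1r* and *Nrp1* are genes by which regulatory T (Treg) cells are commonly recognised. They were taken as a named set, and each was found by its Entrez Gene ID, so that 6 of the 27179 genes in the count files are described. CD69+ thymocytes of 9 mice, 3 each of the WT, *Hoil* ΔCd4 and *Sharpin* cpdm genotypes, were sorted into an MHC I low and an MHC I high fraction for RNA sequencing, 18 samples in all. CD69 appears on thymocytes after positive selection, and surface MHC I increases with their further maturation. The comparisons ask how loss of a component of LUBAC, the complex that builds linear ubiquitin chains and helps to activate NF-κB, alters transcription just after positive selection.

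WT mice were C57BL/6. In *Hoil* ΔCd4 mice (labelled Hoil) a floxed *Rbck1*, the gene of HOIL-1, was deleted by Cre under the control of *Cd4*, hence from the CD4+CD8+ stage and in the T-cell lineage. *Sharpin* cpdm mice (labelled Sharpin) carry the cpdm mutation in every cell, the thymic stroma included. They came from a C57BL/Ka background and were backcrossed onto C57BL/6, and the paper describes them as still largely C57BL/Ka. Genotype and strain background therefore cannot be told apart for them. The ages of the sequenced mice are not given in the sources used here. The sort removed dead cells and cells with CD25, CD44 or markers of other lineages on their surface. Treg cells with surface CD25 were therefore not collected, and the values below are those of the remaining thymocytes.

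FOXP3 is the transcription factor that defines the Treg lineage, and CTLA-4, encoded by *Ctla4*, is an inhibitory receptor that competes with CD28 for the ligands CD80 and CD86. Helios (*Ikzf2*) and Eos (*Ikzf4*) are zinc-finger factors of the Ikaros family found in Treg cells, and Helios is also made by thymocytes that receive strong T-cell receptor signals. Folate receptor 4 (*Izumo1r*) and neuropilin-1 (*Nrp1*), a co-receptor for semaphorins and VEGF, are surface proteins of Treg cells, the latter mainly of those formed in the thymus. In the thymus *Foxp3* is induced by T-cell receptor and CD28 signals, in which the NF-κB protein c-Rel takes part, followed by IL-2.

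The libraries held 10577966 to 16266128 reads assigned to genes. *Rbck1* was at 0.271 to 0.779 CPM (counts per 1000000 counts) in *Hoil* ΔCd4 against 217 to 229 CPM in MHC I low cells of WT, and at 3.72 to 8.94 against 264 to 268 CPM in the MHC I high fraction. *Sharpin* RNA was present in *Sharpin* cpdm cells, at 66.4 to 74.7 against 85.9 to 97.3 CPM in the MHC I low fraction. By *Xist* all 3 WT mice were female, whereas 1 of 3 *Hoil* ΔCd4 and 1 of 3 *Sharpin* cpdm mice were. The MHC I high library of *Hoil* ΔCd4 mouse 2 (called library H2 here) held 64.6 CPM of *Xist* and the highest *Rbck1* level of its group. This mouse was taken as male, its MHC I low library holding 0.61 CPM of *Xist*. Comparisons that rest on it are given with and without it for the 6 genes, the lists and the pre-selection markers. Other marker sums, group levels and correlations are given with it only. The 6 B-cell markers summed to 3.41 to 6.04 CPM, with *Pax5* at 1 count or fewer and *Cd79b* at up to 69 counts per sample. The 5 endothelial markers summed to 173 to 246 CPM, nearly all from *Pecam1* and *Eng*, while *Tie1* had 0 counts in every sample. For the 4 measured markers of NKT and γδ T cells the sum in MHC I low cells was 23.4 to 32.7 CPM in WT. It was 34.7 to 41.0 CPM in *Hoil* ΔCd4 and 35.1 to 50.4 CPM in *Sharpin* cpdm cells. In the MHC I high fraction it was 29.7 to 36.1, 41.2 to 54.4 and 33.6 to 39.9 CPM, in the same order. Most of it came from *Sox13* (13.4, 22.2 and 25.9 CPM on average in the MHC I low fraction) and *Trdc*. *Zbtb16* had a lower mean in *Hoil* ΔCd4 than in WT, at 0.973 ± 0.651 against 1.61 ± 0.494 CPM in MHC I low cells. In MHC I high cells it was at 1.74 ± 0.431 against 2.54 ± 0.465 CPM. *Klrb1c* was at 0 in *Sharpin* cpdm MHC I low cells. The 10 myeloid and dendritic markers summed to 2.18 to 5.34 CPM in MHC I low and 6.09 to 9.47 CPM in MHC I high samples. Most of this sum came from *Itgam*, at 2.84 ± 0.501 CPM in MHC I low and 5.95 ± 0.687 CPM in MHC I high cells of WT. *Lyz2* was at 0.382 and 0 CPM in the same cells, and *Cd14* was at 0 in 5 of the 6 groups. The part of these differences in the results below was not tested.

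All 6 genes passed the filter of at least 0.5 CPM in 3 samples. For *Foxp3* 8 of the 9 MHC I low samples reached that level, the lowest being at 0.430 CPM. In GRCm38 (mm10) coordinates *Foxp3* (Entrez Gene 20371) lies at 7579676–7595243 of chromosome X and *Nrp1* (18186) at 128358591–128505476 of chromosome 8. *Ctla4* (12477) lies at 60909025–60915832 and *Ikzf2* (22779) at 69531207–69687351 of chromosome 1. *Ikzf4* (22781) lies at 128630839–128669671 of chromosome 10 and *Izumo1r* (64931) at 14885814–14903951 of chromosome 9. Counts are per gene over its exons. *Foxp3* overlaps the long noncoding gene *Flicr* and, at its other end, *Ccdc22*. Whether strand was used in counting is not given in the sources used here, so reads of these genes could be shared.

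The stretches upstream of *Foxp3* and *Ctla4* are shown because these genes rose together between the fractions and are known targets of T-cell receptor signals. Both come from the RefSeq promoter table (GRCm38.p6, plus strand), which held 4 of the 6 genes, and capitals mark the GGAAA core bound by NFAT factors, read on either strand. The *Foxp3* stretch is chrX:7579426-7579566, which ends before the first annotated untranslated region and lies within the span of *Flicr*. The *Ctla4* stretch is chr1:60908775-60909024, the 250 bases before the gene.
Foxp3: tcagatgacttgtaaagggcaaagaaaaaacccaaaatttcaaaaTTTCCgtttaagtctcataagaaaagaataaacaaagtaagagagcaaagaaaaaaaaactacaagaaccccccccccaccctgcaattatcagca
Ctla4: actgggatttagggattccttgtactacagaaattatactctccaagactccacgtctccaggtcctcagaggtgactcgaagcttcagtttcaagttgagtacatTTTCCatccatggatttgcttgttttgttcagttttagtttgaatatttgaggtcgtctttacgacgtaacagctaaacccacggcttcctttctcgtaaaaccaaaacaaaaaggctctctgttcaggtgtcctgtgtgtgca
Each stretch held 1 match to GGAAA. At least 1 match was held by 38.2% of all promoters over the first 141 bases of their sequence and by 55.6% over the first 250 bases. Neither held the NF-κB motif, GGG and TTTCC with any 2 bases between them (0.7% and 1.4% of promoters), the AP-1 motif TGANTCA (3.7% and 6.7%) or the STAT motif TTCNNNGAA (4.1% and 7.0%). These matches describe letters in the windows only.

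The 6 genes differed widely in abundance. Per kilobase of exon (TMM-scaled CPM per kilobase, hereafter RPKM), *Ikzf2* was the most abundant in MHC I low cells of WT at 92.8 ± 11.1 RPKM (SD, n = 3), followed by *Izumo1r* at 66.2 ± 9.79 RPKM. *Ikzf4* was at 3.69 ± 0.172, *Nrp1* at 2.07 ± 0.136 and *Ctla4* at 2.00 ± 0.0742 RPKM, and *Foxp3* was last at 0.193 ± 0.0737 RPKM, from 7 to 17 reads per sample. In WT MHC I high cells *Ikzf2* and *Izumo1r* still led with 56.1 ± 5.10 and 45.4 ± 6.50 RPKM. *Ikzf4* was then at 13.9 ± 1.39, *Ctla4* at 9.08 ± 0.388, *Nrp1* at 1.57 ± 0.337 and *Foxp3* at 1.26 ± 0.450 RPKM. Thus *Ikzf2* and *Izumo1r* were well expressed in cells in which *Foxp3* gave few reads. For scale, the related factor Ikaros (*Ikzf1*) was at 283 ± 8.91 RPKM in MHC I low cells of WT and the *Foxp3* relative *Foxp1* at 45.2 ± 1.28 RPKM in MHC I high cells of WT. *Foxp2* had no reads in any sample, under a floor of 3 counts per library.

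**Figure D1:**
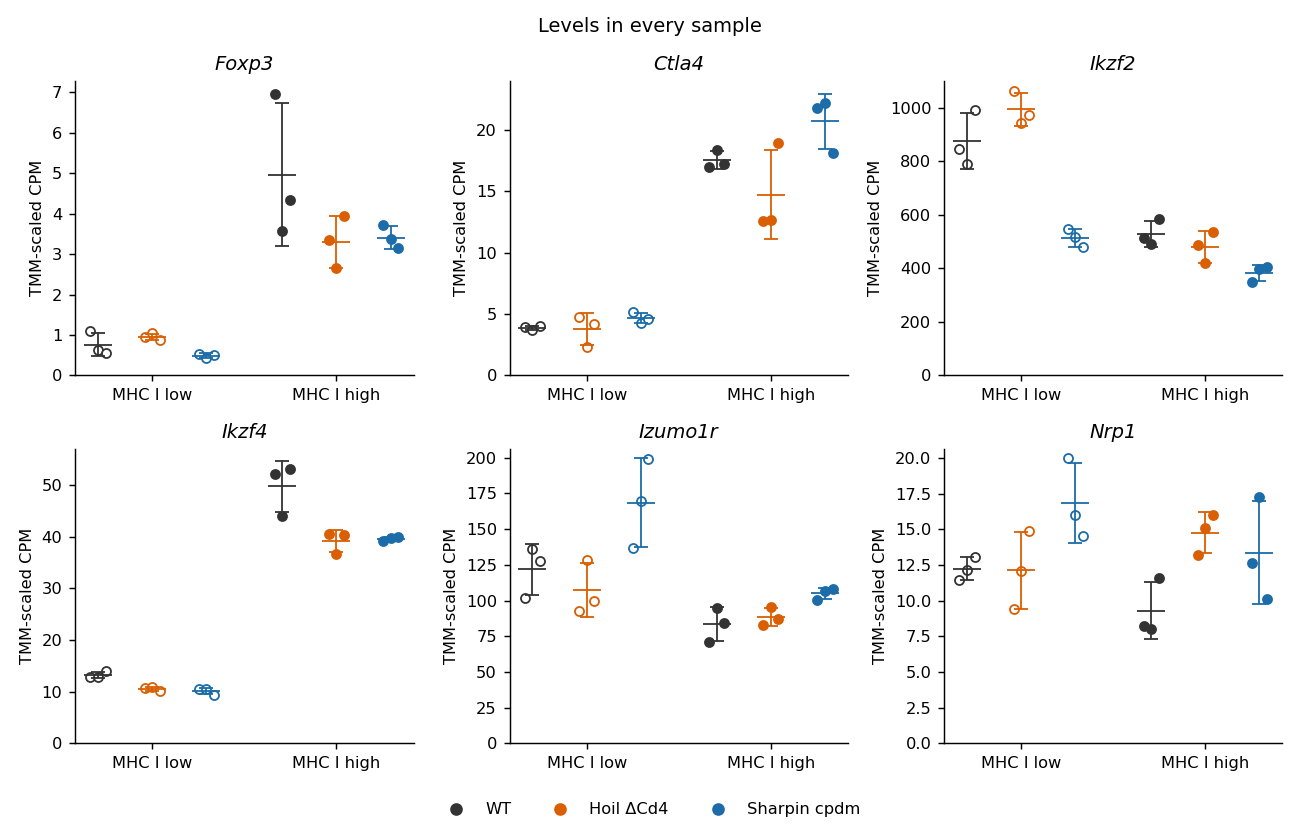
Level of each gene (vertical axes, TMM-scaled CPM, from 0, on separate scales) in each of 18 samples. Points are mice, open for MHC I low and filled for MHC I high, and bars are mean ± SD of 3 mice. *Foxp3*, *Ctla4* and *Ikzf4* are higher in MHC I high samples of every genotype, and *Ikzf2* is lowest in *Sharpin* cpdm mice within each fraction.

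For *Foxp3*, *Ctla4* and *Ikzf4* the largest differences lay between the fractions. All 3 were higher in the MHC I high than in the MHC I low fraction in each of the 9 mice, and *Ikzf2* and *Izumo1r* were lower in all 9. In WT mice 5 of the 6 genes were called (adjusted p under 0.05, limma with Benjamini–Hochberg adjustment over 12798 genes), where 54.4% of all genes tested were. In *Hoil* ΔCd4 mice 4 of 6 were called against a background of 45.3%, and in *Sharpin* cpdm mice 5 of 6 against 54.6%. With so large a background a call between fractions sets these genes little apart. The median log2 difference of the 6 genes in WT was 0.83, against 0.00 over all genes. This median describes no single gene, since 3 of the called genes were higher and 2 lower. It lies between the values of *Nrp1* (−0.29) and *Ikzf4* (1.95).

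*Foxp3* was at 1.09, 0.640 and 0.547 CPM in the MHC I low cells of WT mice 1, 2 and 3, and at 6.95, 3.58 and 4.34 CPM in their MHC I high cells. Every WT mouse had more in the later fraction, and the fractions did not overlap. The log2 fold change (log2FC) was 2.56 with a standard error (SE) of 0.231 (adjusted p = 5.69e-11, limma), or 5.90-fold. *Hoil* ΔCd4 mice went from 0.944, 1.04 and 0.882 CPM to 3.34, 2.65 and 3.94 CPM, a log2FC of 1.71 (SE 0.283, adjusted p = 9.38e-06, limma). In *Sharpin* cpdm mice it went from 0.541, 0.430 and 0.502 CPM to 3.71, 3.37 and 3.14 CPM, a log2FC of 2.65 (SE 0.242, adjusted p = 7.69e-11, limma). The ratio of the fractions was 2.55 to 4.46 in *Hoil* ΔCd4 mice, below the 5.59 to 7.94 of WT mice without overlap, and 6.26 to 7.83 in *Sharpin* cpdm mice. The difference in change between *Hoil* ΔCd4 and WT mice was −0.86 (log2, 95% confidence interval −1.60 to −0.11) and did not pass adjustment (adjusted p = 0.393, limma). Without library H2 it was −0.69 (adjusted p = 0.700), and the log2FC of that genotype was 1.87 (adjusted p = 2.28e-05, limma). *Flicr*, which shares the locus, rose by 0.71 in WT (log2, adjusted p = 0.0233, limma), and *Ccdc22* by 0.52 (adjusted p = 4.18e-08, limma), both less than *Foxp3*. Here, as for every value in these bulk samples, more cells with a transcript and more transcript per cell cannot be told apart.

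*Ctla4* was at 3.91, 3.71 and 3.99 CPM in MHC I low cells of WT and at 16.97, 18.4 and 17.2 CPM in MHC I high cells of WT. These WT values were among the tightest of the set, with an SD of 4.27% of the mean in the later fraction. The log2FC was 2.14 (SE 0.139, adjusted p = 3.09e-14, limma), and it was 1.96 in *Hoil* ΔCd4 (SE 0.171) and 2.16 in *Sharpin* cpdm mice (SE 0.146). Across the genotypes *Ctla4* was 3.90-fold to 4.47-fold higher in the later fraction. Its relative *Cd28*, the costimulatory receptor, had a lower level in the later fraction, at 498 ± 53.3 against 1187 ± 31.3 CPM in WT.

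*Ikzf4* was at 12.9, 12.8 and 13.9 CPM in MHC I low cells of WT and at 52.2, 44.0 and 53.0 CPM in MHC I high cells of WT. The log2FC between fractions was 1.95 for WT, 1.88 for *Hoil* ΔCd4 and 1.95 for *Sharpin* cpdm mice, with SEs of 0.0735, 0.0903 and 0.0771. Across the 9 mice the ratio of the fractions lay between 3.36 and 4.26, the narrowest range of the 3 genes that rose.

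*Ikzf2* changed in the opposite direction to *Ikzf4*. It was at 844, 787 and 991 CPM in MHC I low cells of WT and at 513, 490 and 582 CPM in MHC I high cells of WT, a log2FC of −0.68 (SE 0.0781, adjusted p = 7.07e-07, limma). In *Hoil* ΔCd4 mice it fell from 1063, 942 and 974 CPM to 486, 418 and 537 CPM, a log2FC of −1.06 (SE 0.0960, adjusted p = 4.19e-08, limma). In *Sharpin* cpdm mice, which started lower, it fell from 546, 517 and 480 CPM to 347, 396 and 404 CPM, a log2FC of −0.43 (SE 0.0819, adjusted p = 0.000244, limma). The ratios of the fractions did not overlap between genotypes, at 0.443 to 0.552 in *Hoil* ΔCd4, 0.588 to 0.622 in WT and 0.635 to 0.842 in *Sharpin* cpdm mice. Neither difference from WT passed adjustment (*Hoil* ΔCd4 −0.38, adjusted p = 0.246, and *Sharpin* cpdm 0.25, adjusted p = 0.250, limma). Without library H2 the *Hoil* ΔCd4 difference was −0.29 (adjusted p = 0.506) and the log2FC of that genotype −0.97 (adjusted p = 2.52e-08, limma). The *Ctla4* and *Ikzf4* values of *Hoil* ΔCd4 were then 1.97 and 1.94, both called.

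*Izumo1r* was at 102, 136 and 128 CPM in MHC I low cells of WT and at 71.0, 94.9 and 84.5 CPM in MHC I high cells of WT. It fell by 0.53 on the log2 scale in WT (SE 0.107, adjusted p = 0.000672, limma) and by 0.64 in *Sharpin* cpdm mice (SE 0.112, adjusted p = 0.000192, limma). For *Hoil* ΔCd4 mice the value was −0.24 (95% confidence interval −0.52 to 0.04, adjusted p = 0.157, limma), and −0.27 without library H2 (adjusted p = 0.192).

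*Nrp1* was the gene without a common direction. It was at 11.5, 12.2 and 13.1 CPM in MHC I low cells of WT and at 8.24, 8.03 and 11.6 CPM in MHC I high cells of WT, whereas *Hoil* ΔCd4 mice had 9.44, 12.1 and 14.9 CPM and then 13.2, 15.1 and 16.03 CPM. Each WT mouse was lower and each *Hoil* ΔCd4 mouse higher in the later fraction, with ratios of 0.661 to 0.887 and 1.08 to 1.40. The fitted log2 differences were −0.29 in WT (adjusted p = 0.120), 0.31 in *Hoil* ΔCd4 (0.190) and −0.28 in *Sharpin* cpdm mice (0.147, limma), none of which was called. The WT value was called without WT mouse 3 (−0.53, adjusted p = 0.0353) and without *Sharpin* cpdm mouse 2 (−0.29, adjusted p = 0.0493), and the *Sharpin* cpdm value without *Sharpin* cpdm mouse 2 (−0.59, adjusted p = 0.00913, limma). The change in *Hoil* ΔCd4 mice exceeded that in WT by 0.60 (log2, 95% confidence interval 0.09 to 1.10), which did not pass adjustment (adjusted p = 0.380, limma). Without library H2 the change was 0.28 (adjusted p = 0.339) and its difference from WT 0.57 (adjusted p = 0.619, limma). For the difference in change, 0 of 6 genes were called in *Hoil* ΔCd4 against WT, with 3 at an unadjusted p under 0.05 and 0.398% of all genes called. In *Sharpin* cpdm against WT 0 of 6 were called, with 1 at an unadjusted p under 0.05 and 3.13% of all genes called. edgeR and DESeq2 also called 0 of 6 in both.

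**Figure D2:**
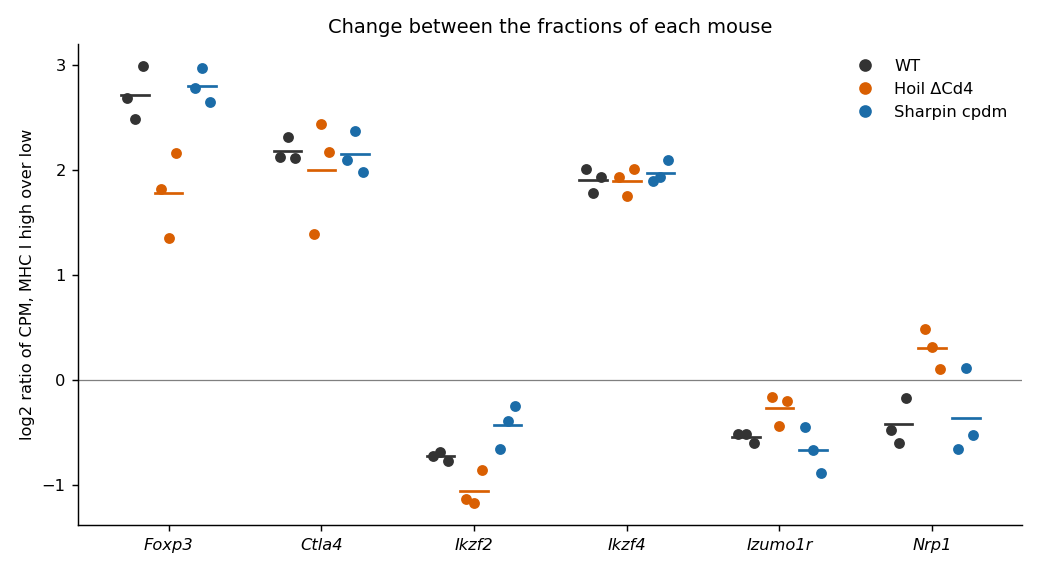
Log2 ratio of MHC I high over MHC I low CPM (vertical axis) in each of 9 mice for each gene. Points are mice, coloured by genotype, and short lines are means of 3 mice. *Foxp3*, *Ctla4* and *Ikzf4* lie above 0 and *Ikzf2* and *Izumo1r* below 0 in every mouse, while *Nrp1* lies on either side.

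Against WT, Helios was the gene with the largest called difference. *Sharpin* cpdm cells had less *Ikzf2* in both fractions and less *Ikzf4* in both, and more *Izumo1r* in the MHC I low fraction. *Hoil* ΔCd4 cells had less *Ikzf4* in the MHC I high fraction. *Foxp3*, *Ctla4* and *Nrp1* were called in none of these 4 comparisons. In *Sharpin* cpdm MHC I low cells 3 of 6 genes were called (12.2% of all genes were), and in the MHC I high fraction 2 of 6 (8.62%). In *Hoil* ΔCd4 MHC I high cells 1 of 6 was called (6.65%), and in the MHC I low fraction 0 of 6 (0.985%), with 1 at an unadjusted p under 0.05 and 0 called by edgeR and by DESeq2. Both mutants were compared with the same WT samples.

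*Ikzf2* in the MHC I low fraction was at 844, 787 and 991 CPM in WT. *Hoil* ΔCd4 mice had 1063, 942 and 974 CPM and *Sharpin* cpdm mice 546, 517 and 480 CPM. All 3 *Sharpin* cpdm values were below all WT and *Hoil* ΔCd4 values. Relative to WT the log2FC was −0.76 in *Sharpin* cpdm cells (SE 0.0950, adjusted p = 4.11e-05, limma), a change of −40.9%. In the MHC I high fraction it was at 347, 396 and 404 CPM in *Sharpin* cpdm against 513, 490 and 582 CPM in WT mice, again without overlap, a log2FC of −0.51 (SE 0.0859, adjusted p = 0.000998, limma). Both calls held in all 22 alternative analyses (adjusted p up to 0.00269 and 0.0311). One of these, female mice alone, gave −0.77 and −0.48 from 1 *Sharpin* cpdm mouse against 3 WT mice, that mouse being assumed to vary as the WT mice did. The differences of *Hoil* ΔCd4 mice from WT were 0.18 in MHC I low (95% confidence interval −0.04 to 0.40, adjusted p = 0.556) and −0.20 in the MHC I high fraction (−0.40 to −0.0037, adjusted p = 0.218, limma). The latter was −0.11 without library H2 (adjusted p = 0.684). Within the family, *Ikzf1*, *Ikzf3* and *Ikzf5* were not called in either mutant against WT. In the MHC I low fraction the summed level of 5 markers of mature single-positive thymocytes, such as *Ccr7* and *Il7r*, was 750 to 771 CPM in *Sharpin* cpdm, 628 to 651 CPM in WT and 532 to 583 CPM in *Hoil* ΔCd4 mice. The 6 markers of pre-selection double-positive thymocytes summed to 352 to 388 CPM in *Sharpin* cpdm, 410 to 442 CPM in WT and 453 to 525 CPM in *Hoil* ΔCd4 mice. In *Sharpin* cpdm against WT cells of this fraction *Rag2* was lower by 1.04 (log2, adjusted p = 0.00194) and *Cd69* by 0.34 (adjusted p = 0.00353, limma). The part of these differences in the *Ikzf2* result was not tested.

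*Ikzf4* in the MHC I high fraction was at 52.2, 44.0 and 53.0 CPM in WT. *Hoil* ΔCd4 mice had 40.5, 36.7 and 40.3 CPM and *Sharpin* cpdm mice 39.2, 39.7 and 39.9 CPM. Both mutants lay below WT without overlap and close to each other. The log2FC was −0.40 in *Hoil* ΔCd4 (SE 0.0880, adjusted p = 0.00548) and −0.37 in *Sharpin* cpdm cells (SE 0.0808, adjusted p = 0.00307, limma). Without WT mouse 1 the adjusted p was 0.162 and 0.113, and without WT mouse 3 it was 0.277 and 0.258. The *Hoil* ΔCd4 call was also lost without mouse 2 (adjusted p = 0.101) and without that mouse's MHC I high sample alone (log2FC −0.34, adjusted p = 0.109, limma). The sign was negative in every alternative. In this fraction 5 of 6 markers of pre-selection double-positive thymocytes were higher in *Hoil* ΔCd4 than in WT cells by limma, among them *Rag1* by 0.89 (log2, adjusted p = 0.00470) and *Rag2* by 1.17 (adjusted p = 0.00113), and the summed level of the 6 was 537 to 830 against 495 to 590 CPM. The largest part of this sum came from *Cd8b1*, at 351 ± 66.5 against 336 ± 40.8 CPM. It was not called (0.12, adjusted p = 0.595), nor was it without library H2 (−0.049, adjusted p = 0.899, limma). Without library H2 the highest sum was 745 CPM and 3 of the 6 were called, *Rag2* (1.00, adjusted p = 0.0413) but not *Rag1* (0.71, adjusted p = 0.0700, limma). The summed level of the mature markers was 950 to 975 CPM in *Hoil* ΔCd4 against 1118 to 1180 CPM in WT. In *Sharpin* cpdm cells of this fraction the mature markers summed to 1083 to 1189 CPM, overlapping WT. The pre-selection markers summed to 566 to 710 CPM there. The part of these differences in the *Ikzf4* result was not tested.

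In the MHC I low fraction *Ikzf4* was at 12.9, 12.8 and 13.9 CPM in WT, while *Hoil* ΔCd4 mice had 10.7, 10.9 and 10.04 CPM and *Sharpin* cpdm mice 10.5, 10.4 and 9.37 CPM. Again both mutants lay below all WT values. *Sharpin* cpdm cells were called (log2FC −0.37, SE 0.0894, adjusted p = 0.00538, limma). *Hoil* ΔCd4 cells were not, with a value of −0.33 (95% confidence interval −0.54 to −0.13, adjusted p = 0.101, limma). The change of *Ikzf4* from WT thus lay between −24.0% and −20.7% in all 4 comparisons, 3 of which were called. Among female mice alone none of these was called (adjusted p from 0.0947 to 0.129), with values from −0.40 to −0.35 and 3 WT mice against 1 mouse of each mutant, a design in which the lone mouse is assumed to vary as the WT mice do.

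*Izumo1r* in the MHC I low fraction was at 102, 136 and 128 CPM in WT, while *Hoil* ΔCd4 mice had 93.0, 128 and 100 CPM and *Sharpin* cpdm mice 137, 170 and 199 CPM. The *Sharpin* cpdm values lay above the WT values, the lowest of them at 137 against 136 CPM. The log2FC was 0.46 (SE 0.130, adjusted p = 0.0326, limma). This call was made in 12 of 22 alternatives and lost, among others, without WT mouse 1 (adjusted p = 0.111) or 3 (0.0864), *Hoil* ΔCd4 mouse 3 (0.0581) or *Sharpin* cpdm mouse 2 (0.122) or 3 (0.133). In the MHC I high fraction *Sharpin* cpdm mice had 101, 107 and 108 CPM against 71.0, 94.9 and 84.5 CPM, also without overlap, but the value of 0.35 was not called (adjusted p = 0.0809, limma). The *Hoil* ΔCd4 values overlapped those of WT in both fractions, with differences in the MHC I high fraction of 0.11 (adjusted p = 0.675) and, without library H2, 0.076 (adjusted p = 0.892, limma).

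*Nrp1* in the MHC I high fraction was at 13.2, 15.1 and 16.03 CPM in *Hoil* ΔCd4 mice, above the WT values of 8.24, 8.03 and 11.6 CPM without overlap. The log2FC of 0.56 (95% confidence interval 0.18 to 0.94) did not pass the threshold (adjusted p = 0.0690, limma). Without library H2 it was 0.53 (adjusted p = 0.305). With *Xist* as a covariate it was 0.70 (adjusted p = 0.0170) and in female mice alone, 1 *Hoil* ΔCd4 mouse against 3 WT mice, 0.65 (adjusted p = 0.0358, limma). Of the 22 alternatives 7 made the call, that of female mice included. In *Sharpin* cpdm mice *Nrp1* was at 20, 16.01 and 14.6 CPM in MHC I low and 12.7, 17.3 and 10.1 CPM in the MHC I high fraction. The first values lay just above the WT values, the second overlapped them, and the differences from WT were 0.45 (adjusted p = 0.120) and 0.46 (adjusted p = 0.0955, limma). With *Xist* as a covariate they were 0.71 (adjusted p = 0.0209) and 0.65 (adjusted p = 0.00800). In female mice alone, 1 *Sharpin* cpdm mouse against 3 WT mice, they were 0.38 (adjusted p = 0.285) and 0.76 (adjusted p = 0.0174, limma). These p-values of female mice assume that the lone mutant mouse varies as the WT mice do. All WT mice were female, and the part of sex in these values was not tested further. The *Hoil* ΔCd4 MHC I high call was also made without *Sharpin* cpdm mouse 2 (adjusted p = 0.0243) or 3 (0.0404).

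For *Ctla4* no difference from WT was called in either mutant. The MHC I high values were 12.6, 12.7 and 18.9 CPM in *Hoil* ΔCd4 and 21.8, 22.2 and 18.1 CPM in *Sharpin* cpdm mice, overlapping the WT values of 16.97, 18.4 and 17.2 CPM. In the MHC I low fraction the *Sharpin* cpdm values of 5.14, 4.30 and 4.60 CPM were above the WT values without overlap (0.25, adjusted p = 0.359, limma), and the *Hoil* ΔCd4 values overlapped them. The *Hoil* ΔCd4 difference in MHC I high cells was −0.24 (adjusted p = 0.430) and, without library H2, −0.23 (adjusted p = 0.677, limma). The 95% confidence intervals of the 4 log2 differences reached from −0.58 at the lowest to 0.60 at the highest.

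*Foxp3* was measured least precisely. In MHC I high cells 57 to 86 reads were counted per WT sample, 35 to 44 per *Hoil* ΔCd4 and 44 to 58 per *Sharpin* cpdm sample. The differences from WT were −0.54 in *Hoil* ΔCd4 (95% confidence interval −1.11 to 0.02, adjusted p = 0.244) and −0.48 in *Sharpin* cpdm cells (−0.998 to 0.04, adjusted p = 0.257, limma), and both mutants overlapped WT. The *Hoil* ΔCd4 difference was −0.38 without library H2 (adjusted p = 0.676, limma). In MHC I low cells, with 5 to 17 reads per sample, all 3 *Sharpin* cpdm values (0.541, 0.430 and 0.502 CPM) were below the WT values (1.09, 0.640 and 0.547 CPM). The difference of −0.57 (95% confidence interval −1.14 to 0.01) was not called (adjusted p = 0.192, limma). Each of these intervals included 0. *Flicr* was higher in *Sharpin* cpdm than in WT cells of the MHC I high fraction by 0.90 (log2, adjusted p = 0.0466, limma). That call lies near the threshold and rests on 27 to 43 reads per *Sharpin* cpdm sample against 17 to 23 per WT sample.

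**Figure D3:**
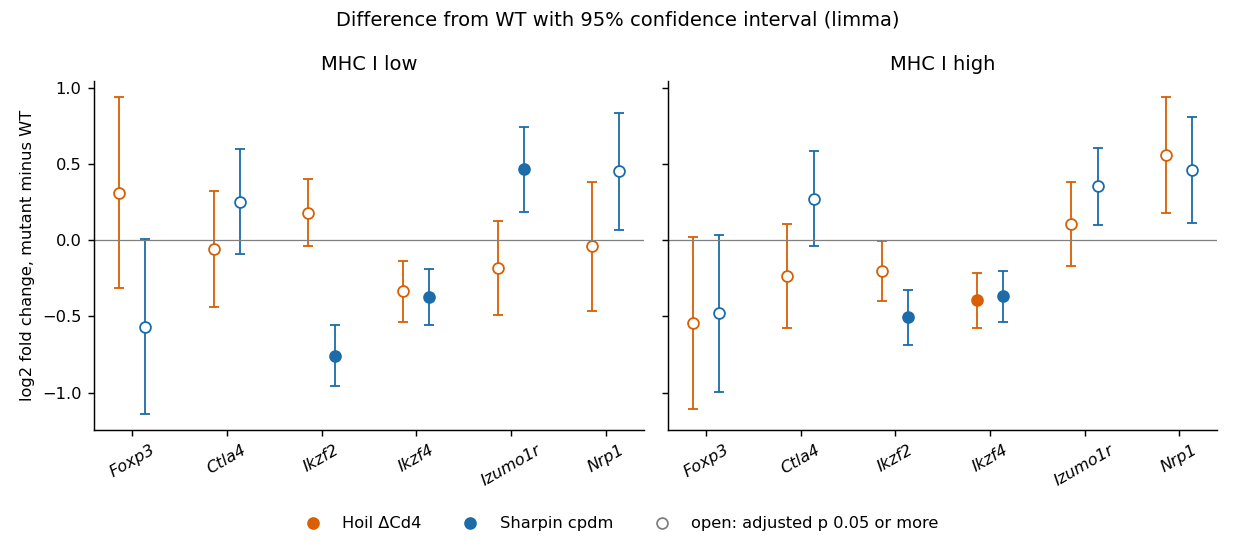
Log2 fold change of each gene, mutant minus WT (vertical axis), in MHC I low (left) and MHC I high cells (right). Points are limma estimates, filled where the adjusted p was under 0.05, and bars are 95% confidence intervals. *Ikzf2* is below 0 in *Sharpin* cpdm mice in both panels, and *Ikzf4* is below 0 in both mutants.

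The mutants were also compared with each other. In MHC I low cells 2 of 6 genes were called, against 9.48% of all genes. *Ikzf2* was higher in *Hoil* ΔCd4 than in *Sharpin* cpdm mice by 0.94 (log2, SE 0.107, adjusted p = 2.49e-05, limma), or 1.92-fold, and this call held in all 22 alternatives. *Izumo1r* was lower by 0.65 (SE 0.147, adjusted p = 0.0136, limma), a call made in 16 of 22 alternatives and lost without *Hoil* ΔCd4 mouse 1 (adjusted p = 0.109) or mouse 3 (0.0895) and without *Sharpin* cpdm mouse 2 (0.0617). *Foxp3* in the same cells was 1.84-fold higher in *Hoil* ΔCd4 mice without overlap, but was not called (adjusted p = 0.0769, limma). In MHC I high cells 0 of 6 were called, against 6.73% of all genes, with 2 at an unadjusted p under 0.05, 1 called by edgeR and 2 by DESeq2. The 2 at an unadjusted p under 0.05 were *Ikzf2* (0.31, adjusted p = 0.0630) and *Ctla4* (−0.51, adjusted p = 0.0657, limma). *Ikzf2* was called without WT mouse 3 (adjusted p = 0.0184) or *Hoil* ΔCd4 mouse 2 (0.0247), and *Ctla4* without *Hoil* ΔCd4 mouse 3 (−0.73, adjusted p = 0.0270, limma). Without library H2, *Ikzf2* was called (0.40, adjusted p = 0.0230) and *Ctla4* was at −0.50 (adjusted p = 0.224, limma). *Ikzf4* did not differ detectably between the mutants, with 95% confidence intervals of −0.17 to 0.25 and −0.21 to 0.16.

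Ordered by mean level over the 6 groups, *Ikzf4* ran from WT MHC I high (49.8 ± 4.97 CPM) to *Sharpin* cpdm MHC I low (10.1 ± 0.644 CPM), and only the pair of mutants within each fraction overlapped. *Ikzf2* ran from *Hoil* ΔCd4 MHC I low (993 ± 62.8 CPM) to *Sharpin* cpdm MHC I high (382 ± 30.7 CPM). The *Sharpin* cpdm MHC I low level of *Ikzf2* (514 ± 33.5 CPM) lay among the MHC I high levels of WT (528 ± 48.1 CPM) and *Hoil* ΔCd4 mice (480 ± 59.8 CPM), and these 3 groups overlapped. *Nrp1* ran from 16.9 ± 2.82 CPM in *Sharpin* cpdm MHC I low to 9.29 ± 1.99 CPM in MHC I high cells of WT, and every neighbouring pair of groups overlapped.

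The 6 genes did not share a pattern over the 18 samples. Pearson's r of log2 CPM was 0.957 between *Foxp3* and *Ikzf4*, 0.943 between *Ctla4* and *Ikzf4* and 0.897 between *Foxp3* and *Ctla4*, over samples of both fractions. After the mean of each fraction was removed these values were 0.456, −0.10 and −0.17. *Ikzf2* and *Izumo1r*, which both fell, had an r of 0.0783 over all samples and of −0.82 within fractions. These values are descriptions, since both fractions of a mouse and several mice of a genotype enter them.

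The genes most like each of the 6 over the 18 samples were named by the same measure. *Ikzf4* was followed most closely by *Ctsw* (r = 0.995), *9930111J21Rik1* (0.993) and *Cyth4* (0.992). *Ctla4* was followed by *Cd7* (0.981), and *Foxp3* by *Slc35g1* (0.973), *Tmem121b* (0.972) and *Ift80* (0.972). *Ikzf2* was most like *Zfp207* (0.966), *Krr1* (0.963) and *Zbtb1* (0.954), and *Izumo1r* most like *Gpr83* (0.936), itself a surface receptor of Treg cells, *Sptlc1* (0.917) and *Cby1* (0.904). *Nrp1* had no close companion, with *Gbf1* at 0.772, *Septin4* at 0.735 and *Hadha* at 0.729.

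Genes that act with these 6 were examined as lists. Of 43 genes that induce *Foxp3* or act with its product, all of which were tested, 0 were higher and 3 lower in *Hoil* ΔCd4 cells of the MHC I low fraction (6.98% of the list, against 0.985% of all genes), and 4 were higher and 2 lower in the MHC I high fraction (6 of 43, against 6.65%). The latter counts were 2 and 0 without library H2 (1.39% of all genes). For the 0 higher, 3 had an unadjusted p under 0.05 with limma, edgeR called 0 and DESeq2 1. In *Sharpin* cpdm mice 5 were higher and 10 lower in the MHC I low fraction (34.9%, against 12.2% of all genes), and 4 were higher and 7 lower in the MHC I high fraction (25.6%, against 8.62%). The list's median log2 difference stayed between −0.01 and 0.01 in all 4 comparisons, as did that of all genes.

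Among the lower members were genes of NF-κB proteins. *Relb* was at 79.8 ± 6.67 CPM in *Hoil* ΔCd4 and 85.1 ± 8.23 CPM in *Sharpin* cpdm against 113 ± 5.33 CPM in MHC I low cells of WT (log2FC −0.51 and −0.43, adjusted p = 0.000158 and 6.76e-05, limma). *Rel*, which encodes c-Rel, was at 57.3 ± 8.27 against 86.9 ± 6.43 CPM in *Sharpin* cpdm MHC I low cells (log2FC −0.57, SE 0.0817, adjusted p = 1.70e-05, limma). *Nfkb1* of the MHC I low fraction was lower in *Hoil* ΔCd4 mice by 0.30 (adjusted p = 0.0136), a call lost in 5 of 22 alternatives, among them those without WT mouse 3 (adjusted p = 0.0969) and *Hoil* ΔCd4 mouse 2 (0.0613) or 3 (0.0525). The orphan nuclear receptors *Nr4a3* and *Nr4a1*, which respond to T-cell receptor signals, were lower in *Sharpin* cpdm MHC I high cells (−0.47 and −0.27, adjusted p = 0.000693 and 0.00215, limma), the call for *Nr4a1* being lost without WT mouse 3 (0.169) and without *Sharpin* cpdm mouse 2 (0.0689). In *Hoil* ΔCd4 MHC I high cells *Relb* (−0.36, adjusted p = 0.00128) and *Stat5a*, a mediator of IL-2 signals (−0.20, adjusted p = 0.0192, limma), were lower. *Relb* lost its call there without WT mouse 3 (adjusted p = 0.0725), without *Hoil* ΔCd4 mouse 2 (0.0612) and without library H2 (0.0617). The *Stat5a* call was made in 11 of 22 alternatives and lost without any of the 3 WT mice (adjusted p from 0.0558 to 0.499), without *Hoil* ΔCd4 mouse 2 (0.149) or 3 (0.0989) and without library H2 (0.155).

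Of the higher members, *Uhrf1* and *Dnmt1*, which maintain DNA methylation, were higher in the MHC I high cells of *Hoil* ΔCd4 (0.67 and 0.32, adjusted p = 1.58e-05 and 0.000610) and of *Sharpin* cpdm mice (0.47 and 0.29, adjusted p = 0.000279 and 0.000377, limma). Without WT mouse 3 *Dnmt1* was not called in either (adjusted p = 0.0910 and 0.0850). Without library H2 the *Hoil* ΔCd4 values were 0.56 and 0.31, both called. *Lef1*, a factor of the TCF family, and *Nfatc1* were higher in *Sharpin* cpdm MHC I low cells, by 0.36 and 0.35 (log2, adjusted p = 0.000391 and 0.00115, limma).

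Of 43 further genes found on the surface of Treg cells or among their effector genes, 33 passed the filter. In *Hoil* ΔCd4 mice 3 were higher and 5 lower in the MHC I low fraction (24.2% of the list, against 0.985% of all genes), and 5 higher and 10 lower in the MHC I high fraction (45.5%, against 6.65% of all genes). The latter counts were 3 and 7 without library H2 (1.39% of all genes). In *Sharpin* cpdm mice 1 was higher and 5 lower in the MHC I low fraction (18.2%, against 12.2%), and 0 higher and 9 lower in the MHC I high fraction (27.3%, against 8.62% of all genes). For the 0 higher, 1 had an unadjusted p under 0.05 with limma, and edgeR and DESeq2 called 0. The list's median was −0.18, −0.06, −0.02 and −0.18 in these comparisons. *Il2ra*, *Gadd45b*, *Tnfrsf18* and *Tnfrsf4* of this list and *Relb* of the list above were singled out by the study from these same samples, so their direction is not independent evidence. The gene lists were chosen with earlier results of these data known. Their shares of called genes are therefore descriptions and not independent evidence either.

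*Il2ra*, the gene of CD25, was at 6.22 ± 1.43 CPM in *Hoil* ΔCd4 and 5.96 ± 0.952 CPM in *Sharpin* cpdm against 15.96 ± 4.15 CPM in MHC I low cells of WT (log2FC −1.34 and −1.37, adjusted p = 8.76e-05 and 2.98e-06, limma). These cells had been sorted as negative for CD25. *Gadd45b*, a stress response gene, was lower by 1.17 and 1.15 in the MHC I low fraction of the *Hoil* ΔCd4 and *Sharpin* cpdm mice and by 1.28 in MHC I high cells of *Hoil* ΔCd4 (log2, adjusted p = 2.78e-05, 1.61e-06 and 1.00e-06, limma). *Lrrc32* (GARP), which holds latent TGF-β on the surface of Treg cells, was at 0.996 ± 0.114 against 4.93 ± 0.866 CPM in MHC I high cells of *Hoil* ΔCd4 (log2FC −2.22, adjusted p = 1.45e-05, limma). Without library H2, *Gadd45b* was at −1.05, *Lrrc32* at −2.21, *Pdcd1* at 0.47 and *Tigit* at 1.19 in that fraction, each still called. *Penk*, the precursor of enkephalins, was at 1.16 ± 0.506 against 7.11 ± 1.28 CPM in *Sharpin* cpdm MHC I high cells (log2FC −2.64, adjusted p = 1.71e-06, limma), where the phosphatase gene *Dusp4* was also lower (−0.68, adjusted p = 2.74e-07, limma). Higher in *Hoil* ΔCd4 mice were the receptor genes *Pdcd1* (PD-1), by 0.35 in MHC I low and 0.47 in the MHC I high fraction (adjusted p = 0.0248 and 0.000111), and *Tigit*, by 1.16 in the MHC I high fraction (adjusted p = 0.000123), and the integrin gene *Itgb8*, by 1.51 in the MHC I low fraction (adjusted p = 0.000338, limma). The chemokine receptor gene *Ccr8* was higher in *Sharpin* cpdm MHC I low cells by 0.44 (adjusted p = 0.0141, limma), a call made in 17 of 22 alternatives and lost without WT mouse 3 (0.118) and *Sharpin* cpdm mouse 1 (0.0734) or 2 (0.0944). The call for *Pdcd1* in the MHC I low fraction did not hold without WT mouse 1 (adjusted p = 0.139), nor without *Hoil* ΔCd4 mouse 2 (0.0857) or 3 (0.162).

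**Figure D4:**
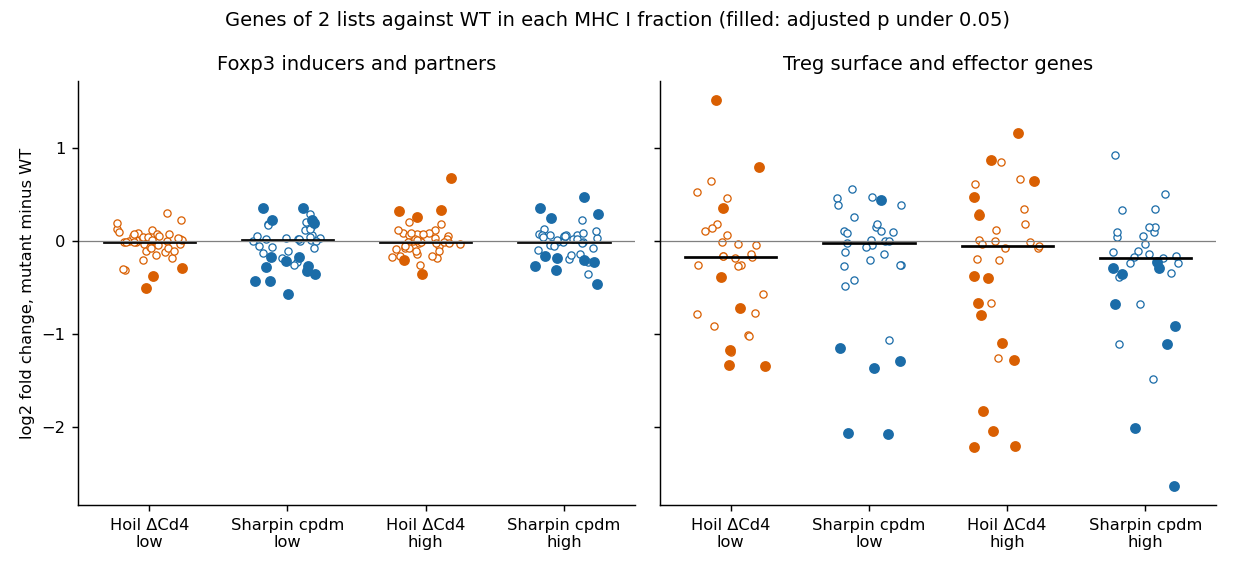
Log2 fold change, mutant minus WT (vertical axis), of each tested gene of the list of *Foxp3* inducers and partners (left, 43 genes) and of Treg surface and effector genes (right, 33 genes) in each mutant and fraction. Points are genes, filled where the adjusted p was under 0.05 (limma), and black lines are medians. The left panel stays within 1 on the log2 scale, while genes of the right panel reach −2.64 and 1.51.

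Of the closest relatives of the 6 genes, 8 of 11 passed the filter. In *Hoil* ΔCd4 mice 0 of 8 were called by limma in either fraction. The count in MHC I high cells was also 0 without library H2. In the MHC I low fraction 3 had an unadjusted p under 0.05, edgeR called 0 and DESeq2 1, and in the MHC I high fraction these counts were 0, 0 and 0. In *Sharpin* cpdm mice 1 of 8 was called in each (12.5%, against 12.2% of all genes in the lower and 8.62% in the higher fraction), *Nrp2*, the relative of *Nrp1*. *Nrp2* was at 3.30 ± 0.167 against 9.14 ± 0.804 CPM in the MHC I high fraction (log2FC −1.40, adjusted p = 7.64e-07) and at 1.60 ± 0.377 against 2.58 ± 0.303 CPM in the MHC I low fraction (−0.65, adjusted p = 0.0188, limma), the latter call being made in 14 of 22 alternatives and lost without WT mouse 1 (0.0915) or 3 (0.104) and without *Sharpin* cpdm mouse 3 (0.101). *Nrp2* and *Ctla4* lie within 5 Mb of each other on chromosome 1. Within 5 Mb of *Ctla4*, 14 of 52 tested genes were called in the MHC I low fraction of *Sharpin* cpdm mice (26.9%, against 12.2% of all genes), and within 5 Mb of *Ikzf2*, on the same chromosome, 2 of 34 (5.88%). The shares in the MHC I high fraction were 9.62% and 5.88%, against 8.62% of all genes. The part of the strain background in these values was not tested.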

How the data were processed

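RNA was measured in 18 thymocyte samples from 9 mice. The authors aligned single-end reads to mm10 (subread, in Rsubread) and counted them by featureCounts with its inbuilt RefSeq-based annotation. The deposited values are raw counts per gene, without normalization, and replicates were not pooled. Tool versions and the settings for strand and multiply matching reads are not given in the sources used here. A table of the whole series, identical to the files of single samples, was not used.

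From these counts the study's methods were followed in R 4.3.3 (edgeR 4.0.16, limma 3.58.1, statmod 1.5.0, and DESeq2 1.42.0 as an alternative). A gene had to reach 0.5 CPM in 3 or more samples, and *Xist*, genes of the Y chromosome, predicted genes and those lacking an official symbol were dropped, which left 12798. Log2 CPM were computed on TMM-scaled libraries (prior count 1). One limma model of 6 groups used all samples, sample quality weights and the mouse as a random block (correlation 0.224), with trended and robust empirical Bayes. Adjusted p-values are Benjamini–Hochberg over all genes tested, and genes under 0.05 were called. Intervals are those of the fit. Levels are TMM-scaled CPM as mean ± SD of 3 mice, and division by the exon length in the files gave RPKM. Since both fractions come from the same animal, their deviations were compared and correlated in all 9 mice (Pearson r from 0.0702 to 0.256). Samples of a group differed by more than sampling noise (5.26 to 16.7 for chi-square over its degrees of freedom). The tests were tried on simulated data.

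The members, gene lists and marker lists were chosen with earlier results of these data known. Named were all 6 members, up to 2 called genes per list, direction and comparison with WT, by smallest p, and the 3 genes most correlated with each member, some of which are not reported here. Other genes, such as relatives, overlapping genes and markers, were named for scale or as checks after their values were seen. Alternatives were edgeR, DESeq2, library size scaling, no filter, at least 10 counts in every sample (which removes *Foxp3*), no weights, the mouse block left out or replaced by a fixed block for mouse number, *Xist* as a covariate, a prior count of 3, only the groups compared, and each mouse left out in turn. Female mice only, and all samples but the MHC I high library of *Hoil* ΔCd4 mouse 2, were added after seeing the data. All 6 members passed the filter, so the permutation test planned for members under it was not needed.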

Additional observations from a re-analysis of the deposited data

Results flagged for a closer look

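The change of *Nrp1* between fractions differed in direction between genotypes. All 3 WT mice were lower and all 3 *Hoil* ΔCd4 mice higher in MHC I high than in MHC I low cells, and the changes differed by 0.60 (log2, standard error 0.242). The test of this difference did not pass adjustment (adjusted p = 0.380, limma, and 0.223 to 0.935 in the alternatives). All 3 WT mice were female, and 2 of the 3 *Hoil* ΔCd4 mice were male.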

How the results depend on the processing

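Of 1441 values of the 6 genes under 22 alternatives, 1338 kept their direction and their side of the threshold, 34 became called, 26 lost their call and 43 changed sign. The *Ikzf2* calls in *Sharpin* cpdm cells held throughout. No value called in the reported analysis changed sign, whereas that of *Nrp1* between the fractions of *Sharpin* cpdm mice, called only without mouse 2, did. Causes were not tested.

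The number of the 6 genes called in *Hoil* ΔCd4 against WT MHC I high cells was 2 with DESeq2, without weights, with *Xist* as a covariate and with only the groups compared, 0 without the MHC I high library of *Hoil* ΔCd4 mouse 2, and 0 to 2 with a mouse left out. In *Sharpin* cpdm against WT it was 1 in MHC I low cells of female mice, 1 in MHC I high cells without weights, and 1 to 2 there with a mouse left out. Between the mutants it was 1 in MHC I low cells with no filter, only the groups compared or female mice, and 1 to 2 with a mouse left out. In MHC I high cells it was 1 with edgeR, 2 with DESeq2, *Xist* or only the groups compared, 1 without that sample, and 0 to 1 with a mouse left out.

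Leaving out the mouse block changed no call of the 6 genes and turned the difference in change of *Sharpin* cpdm from WT to −0.000538 for *Ikzf4* and −0.011 for *Nrp1*. With the mouse number as a fixed block, 3 genes were called between the mutants in MHC I high cells, *Izumo1r* was called in *Sharpin* cpdm MHC I high cells (adjusted p = 0.00524) and between the fractions of *Hoil* ΔCd4 mice (0.0164), and the difference in change of *Sharpin* cpdm was −0.018 for *Ctla4* and −0.019 for *Nrp1*. That number joins mice only by their label.

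The other values that changed sign were not called in the reported analysis. The difference in change of *Sharpin* cpdm for *Ctla4* was −0.043 with edgeR, −0.040 with DESeq2, −0.033 without weights and −0.030 with *Xist*. That of *Nrp1* was −0.060 with *Xist* and −0.0054 with only the groups compared. With *Xist*, *Hoil* ΔCd4 MHC I low values were 0.085 for *Ctla4* and 0.21 for *Nrp1*. In female mice, *Hoil* ΔCd4 against WT gave 0.12 and 0.12 for *Ctla4* in the fractions and 0.28 for *Nrp1* in MHC I low cells, with differences in change of 0.0045 (*Ctla4*) and 0.043 (*Ikzf4*). *Ikzf4* then gave −0.026 for that of *Sharpin* cpdm, and between the mutants −0.048 and 0.021. *Foxp3* and *Nrp1* gave 0.22 and −0.11 between the mutants in MHC I high cells, and *Nrp1* gave 0.12 between the fractions of *Sharpin* cpdm mice. Without the MHC I high library of *Hoil* ΔCd4 mouse 2, values between the mutants there were 0.11 for *Foxp3* and 0.033 for *Ikzf4*.

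With a mouse left out, values between the mutants in MHC I high cells ranged from −0.19 to 0.094 for *Foxp3* and from −0.046 to 0.028 for *Ikzf4*. Those of *Hoil* ΔCd4 against WT ranged from −0.30 to 0.21 (*Ctla4*) and −0.20 to 0.13 (*Nrp1*) in MHC I low and from −0.019 to 0.20 (*Izumo1r*) in MHC I high cells. Differences in change ranged from −0.38 to 0.13 (*Ctla4*) and −0.12 to 0.026 (*Ikzf4*) in *Hoil* ΔCd4, and from −0.067 to 0.17 (*Foxp3*), −0.13 to 0.066 (*Ctla4*), −0.042 to 0.094 (*Ikzf4*) and −0.30 to 0.25 (*Nrp1*) in *Sharpin* cpdm mice.

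Over all genes, calls against WT numbered 126 (49 to 439 in the alternatives) and 851 (134 to 1219) in *Hoil* ΔCd4, and 1565 (615 to 1728) and 1103 (238 to 1367) in *Sharpin* cpdm mice, the lower fraction first. With 5 to 17 reads of *Foxp3* per MHC I low sample, depth limits that gene most. Replicates are mice, so p-values cover the spread between 3 mice a group.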
